A study of Mus musculus with 12 samples.

Results

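The genes described here encode the proteins of the cytosolic ribosome, measured in sorted spleen erythroid precursors of 4 mouse genotypes. They were taken from the array annotation by name: a probe set with 1 symbol only, beginning with Rpl or Rps and a digit or with Rplp, without the Rps6k kinases, Rps27l, Rpl22l1, pseudogenes marked -ps and symbols containing rt. Where a gene had several probe sets, the one with the highest mean over the 12 arrays was used. The rule found 61 genes among the 19938 that the array reads with a probe set of 1 symbol, 38 named for the large subunit and 23 for the small. Of these 61, 8 are not proteins of the standard ribosome. They are Rpl3l, Rpl10l, Rpl39l, Rpl7l1, Rpl32l and Rps4l, paralogues by name, Rps23rg1, a retroposed gene, and Rps19bp1, which encodes a protein that binds Rps19. Rpl32l and Rps23rg1 were set apart by their symbols after the annotation was seen. The other 53, 33 of the large and 20 of the small subunit, are called the core members. A reference gene table held 84 genes by the same rule, and 24 of them were not reached, 17 of which are named only on probe sets that carry several symbols.

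The series holds 12 one-colour arrays of total RNA from spleen cells of 3-month-old mice, sorted as Ter119+ cells (some labels write Ter19+) with high CD71, the transferrin receptor. There were 3 biological replicates for each genotype label: the wild type (WT), the knockout of E2f8 (E2f8 KO), that of Rb (Rb KO) and that of both (Rb;E2f8 KO, here called DKO). The sources used here do not give how and in which cells the alleles were deleted, nor the strain and sex of the mice. Rb, the product of Rb1, holds back E2F transcription factors in the cell cycle, and E2f8 is an E2F that acts as a repressor. The deposited values are signals on a log2 scale, 1 unit of which is a doubling, and differences below are differences of log2 signal. Each is given with its standard error (SE) from limma and a p-value adjusted over all 12980 genes tested, and a gene is said to rise or fall only at an adjusted p under 0.05. With 3 arrays in each group, p-values measure the spread between these samples only.

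A ribosome consists of a small subunit that reads the messenger RNA and a large subunit that joins amino acids, each built from ribosomal RNA and many proteins. Erythroid precursors make ribosomes in quantity to translate globin messenger RNA, and loss of 1 copy of certain ribosomal protein genes causes Diamond-Blackfan anemia, in which red cell precursors fail to mature. Messenger RNAs of ribosomal proteins as a rule start with a run of pyrimidines, through which their translation follows growth signals.

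The signals of the deleted genes did not follow the labels. Rb1 was lowest in the arrays labelled E2f8 KO (11.68 to 11.74) and lay at 12.33 to 12.53 in those labelled Rb KO, 11.98 to 12.23 in DKO and 12.71 to 13.02 in WT. E2f8 was higher in the arrays labelled E2f8 KO (12.74 to 12.89) and DKO (13.09 to 13.17) than in WT (11.70 to 12.28) and Rb KO (11.68 to 12.52). A probe set outside the deleted part of a gene checks nothing, and the sources used here do not place it relative to the deletion, so every genotype named below is the label of the arrays. Xist, the RNA of the silenced X, read 5.22 in E2f8 KO replicate 3 and 3.99 in DKO replicate 3, against 11.30 to 12.18 in the other 10 arrays. Of 15 erythroid markers, 10 were tested, all at a signal of 10.36 or more on every array, and for their mean WT arrays gave 12.74 ± 0.13 (SD), E2f8 KO arrays 12.97 ± 0.09, Rb KO arrays 12.56 ± 0.34 and DKO arrays 12.90 ± 0.01. Markers of other spleen cells differed more. The mean of 15 B cell markers was 11.10 ± 0.75 (SD) in WT, 11.23 ± 1.20 in Rb KO, 8.23 ± 0.20 in E2f8 KO and 6.85 ± 0.59 in DKO. T cell markers averaged 7.84 for WT, 7.62 for Rb KO, 6.23 for E2f8 KO and 5.78 for DKO, and macrophage markers 9.95, 9.08, 8.68 and 7.79. Granulocyte markers averaged 6.46 ± 0.06 (SD) for WT, 6.94 ± 0.04 for Rb KO, 8.44 ± 0.23 for E2f8 KO and 8.38 ± 1.66 for DKO. The DKO arrays spread widely there, at 6.92, 8.05 and 10.19, with replicate 1 at the level of Rb KO. In bulk samples such as these, fewer cells of a type and less RNA per cell cannot be told apart.

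Since many members moved together, the start regions of those on which the results turn are shown first, from RefSeq on build GRCm38.p6. Windows of 60 bases before to 15 bases after the annotated start are printed 5′ to 3′ on the strand of the gene, with capitals for a match to a motif that was searched. The first 4 genes fell in E2f8 KO against WT, in DKO against WT and in DKO against Rb KO. Their windows are Rpl5 chr5:107900468-107900542 (plus strand), Rpl23 chr11:97782425-97782499 (minus strand), Rps9 chr7:3703981-3704055 (plus strand) and Rps28 chr17:33824548-33824622 (minus strand).
Rpl5: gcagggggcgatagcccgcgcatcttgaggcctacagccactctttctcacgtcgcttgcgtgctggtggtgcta
Rpl23: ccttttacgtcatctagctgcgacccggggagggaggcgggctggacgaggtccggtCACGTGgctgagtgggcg
Rps9: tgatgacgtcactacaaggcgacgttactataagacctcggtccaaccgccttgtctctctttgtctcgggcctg
Rps28: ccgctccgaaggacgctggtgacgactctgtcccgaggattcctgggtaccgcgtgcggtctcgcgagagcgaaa

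None of these 4 windows has a match for an ETS or E2F motif, and Rpl23 has an E-box 3 bases before its start. A second pair that fell in the same comparisons, Rpl37a chr1:72711200-72711274 (plus strand) and Rpl38 chr11:114668520-114668594 (plus strand), carries ETS matches, at 40 and 16 bases before the start in Rpl37a and at 19 and 13 bases before it in Rpl38.
Rpl37a: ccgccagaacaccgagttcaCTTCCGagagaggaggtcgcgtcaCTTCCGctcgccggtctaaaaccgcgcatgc
Rpl38: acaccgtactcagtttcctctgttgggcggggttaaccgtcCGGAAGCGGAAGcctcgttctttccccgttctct

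The third set holds 2 core members that passed in no comparison, Rps6 and Rps3a1, and Rps19bp1, which rose. The windows are Rps6 chr4:86857353-86857427 (minus strand), Rps3a1 chr3:86142654-86142728 (minus strand) and Rps19bp1 chr15:80264292-80264366 (minus strand). Each has an ETS match near the start, and Rps3a1 also has an E2F match at 51 bases before it.
Rps6: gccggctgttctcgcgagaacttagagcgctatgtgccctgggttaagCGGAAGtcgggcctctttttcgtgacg
Rps3a1: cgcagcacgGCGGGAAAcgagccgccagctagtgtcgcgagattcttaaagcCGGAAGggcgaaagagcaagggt
Rps19bp1: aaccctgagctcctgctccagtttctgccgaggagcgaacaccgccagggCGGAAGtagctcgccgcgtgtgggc

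The search covered the whole RefSeq windows of 250 bases before to 50 bases after each start, on both strands, each motif counted on its own even where matches overlap. Windows were found for 49 of the 61 members and 42 of the 53 core members, the latter with 49 windows because some genes have several starts. The ETS core CGGAAG lay in 65.3% of the core windows and in 16.9% of all 32817 windows. A pyrimidine run of 8 or more between 15 bases before and 25 bases after the start was in 36.7% of core windows and 15.3% of all. The E-box CACGTG was in 14.3% and 7.15%, CCAAT in 28.6% and 37.4%, and TATAAA in 10.2% and 13.6%. Any of 4 E2F motifs (TTTCCCGC, TTTGGCGC, TTTCGCGC or TTTGCCGC) was in 2.04% of core windows and 2.26% of all, that is in 1 core window, that of Rps3a1. ETS matches were in 17 of 25 windows of the members that fell in DKO against Rb KO and in 15 of 24 of the other core members, and pyrimidine runs in 9 of 25 and 9 of 24. The E-box was in 1 of 25 and 6 of 24. A match describes letters and not a bound site.

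Both subunits had lower signals in E2f8 KO and DKO than in WT and Rb KO. Each core member was centred on its mean over the 12 arrays, and the mean over the 53 gave 0.17, 0.17 and -0.01 in the WT arrays, 0.19, 0.21 and 0.28 in Rb KO, -0.30, -0.13 and -0.06 in E2f8 KO, and -0.14, -0.10 and -0.27 in DKO. All 3 Rb KO arrays lay above every other array, and the ranges of E2f8 KO and DKO overlapped. For the large subunit WT arrays averaged 0.11 ± 0.08 (SD, n = 3), E2f8 KO arrays -0.17 ± 0.13, Rb KO arrays 0.23 ± 0.05 and DKO arrays -0.17 ± 0.09. For the small subunit the averages were 0.11 ± 0.15, -0.14 ± 0.10, 0.21 ± 0.05 and -0.17 ± 0.08 in the same order. The large minus small difference was 0.01 ± 0.07 in WT, -0.03 ± 0.03 in E2f8 KO, 0.03 ± 0.03 in Rb KO and -0.0021 ± 0.0171 in DKO, so in each group it was smaller than its SD. Of the 53 core members, 49 had their highest group mean in Rb KO, and 28 had their lowest in DKO, 22 in E2f8 KO and 3 in WT. The median SD within a group was 0.15 for the core members and 0.22 for all genes tested.

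**Figure D1:**
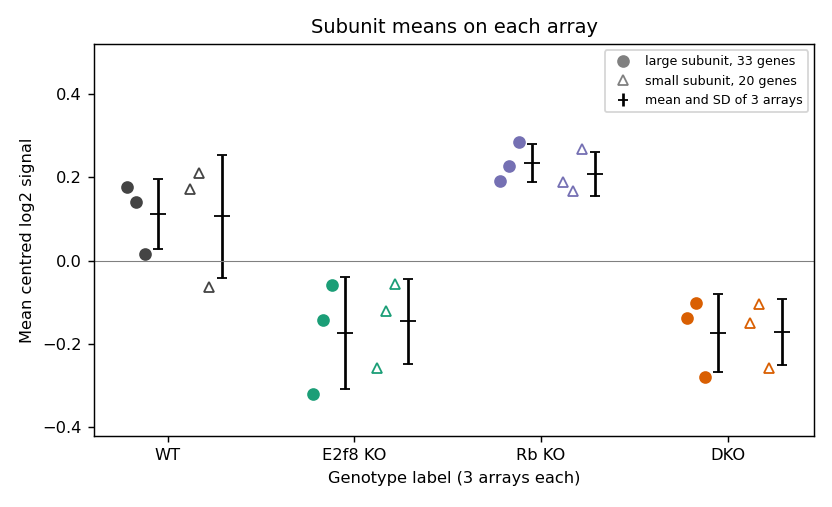
Mean centred log2 signal of the 33 large subunit genes (filled circles) and 20 small subunit genes (open triangles) on each array, by genotype label, with the mean and SD of 3 arrays in black. Both subunits sit above 0 in Rb KO and below 0 in E2f8 KO and DKO, and WT replicate 3 is the lowest WT array in both.

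**Figure D2:**
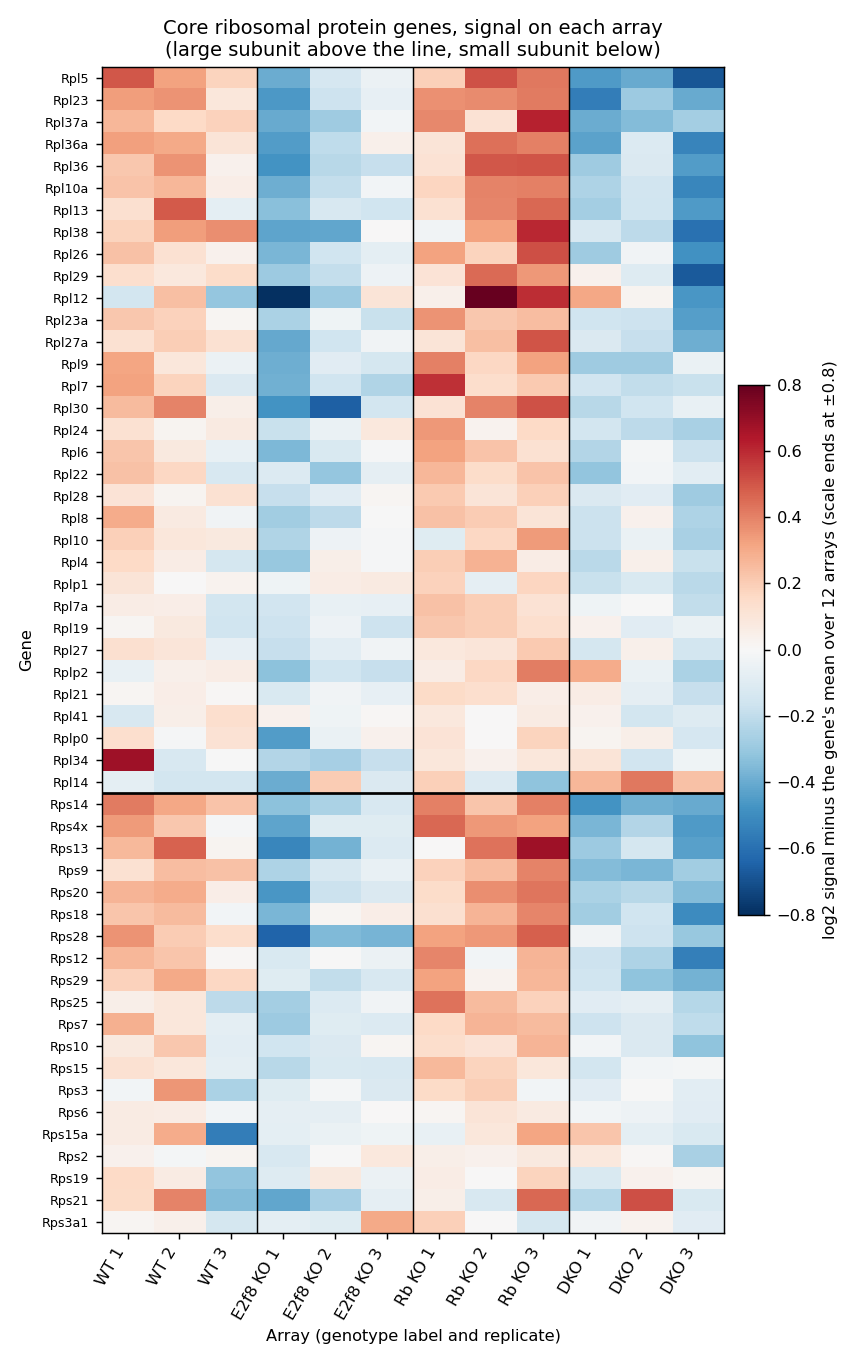
Log2 signal of each core member on each of the 12 arrays, minus the gene's mean over the 12 arrays, with large subunit genes above the black line and small subunit genes under it, sorted by the difference of DKO from Rb KO. Red is higher and blue lower than the mean of the gene, and the colour scale ends at 0.8 either way. E2f8 KO and DKO columns are blue for most of the genes. Near the foot of each block genes such as Rplp0 and Rps2 differ little between DKO and Rb KO, and Rpl14, the last large subunit gene, is higher in DKO.

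Arrays labelled E2f8 KO were first set against WT, by the labels a comparison of the E2f8 deletion alone. Among the 59 members that passed the filter on low signals, 14 were called (26.1% of all genes tested were), of which 13 fell and 1 rose, where 14.2% of all genes fell and 11.9% rose. The share of members called (23.7%) was thus near that of all genes, and the share that fell was 22.0%. All 13 that fell were core members, 8 of 33 in the large and 5 of 20 in the small subunit, which is 24.5% of the core. The median difference of the core was -0.26, with 49 of 53 below 0, against a median of 0.06 over all genes tested, and the signals of 30 core members in E2f8 KO all lay under those in WT, as did those of 23.5% of all genes. Rpl3l and Rpl39l, paralogues known from muscle and testis, were the 2 members that did not pass the filter, at signals of 4.99 to 5.41 and 4.07 to 4.41 on all arrays.

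Rps28, a small subunit protein mutated in some cases of Diamond-Blackfan anemia, read 11.52, 11.37 and 11.30 on the WT arrays and 10.52, 10.81 and 10.79 on those labelled E2f8 KO, in log2 signal. These groups lay apart, and the signal fell by 0.69 ± 0.13 (SE, limma, adjusted p = 0.0038), to 0.621 times WT. Rps14, whose loss of 1 copy marks the 5q- syndrome, an anemia, read 11.64, 11.53 and 11.45 in WT and 10.89, 10.97 and 11.09 in E2f8 KO, and fell by 0.55 ± 0.12 (adjusted p = 0.00611). Rps20 fell by 0.46 ± 0.12 (adjusted p = 0.016), from 12.62, 12.65 and 12.41 to 11.89, 12.18 and 12.24. In the large subunit Rpl23, on the face that joins the small subunit, fell by 0.49 ± 0.13 (adjusted p = 0.0178), from 11.90, 11.92 and 11.65 in WT to 11.10, 11.39 and 11.49. Rpl30 went from 8.46, 8.61 and 8.26 to 7.73, 7.56 and 8.06, a fall of 0.66 ± 0.18 (adjusted p = 0.018). Rpl5, which carries 5S RNA into the large subunit and with Rpl11 binds the p53 regulator Mdm2, read 11.84, 11.67 and 11.52 in WT and 10.94, 11.21 and 11.29 in E2f8 KO, and fell by 0.53 ± 0.15 (adjusted p = 0.02). In each of these genes the lowest E2f8 KO array was replicate 1, other than in Rpl30, where it was replicate 2. Rpl36, Rpl38 (known for its part in the translation of Hox messages), Rpl37a (which binds zinc), Rps9 and Rps13 fell by 0.50 ± 0.15, 0.57 ± 0.18, 0.44 ± 0.14, 0.34 ± 0.10 and 0.59 ± 0.20, with adjusted p between 0.0263 and 0.0419.

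The number of members called in E2f8 KO against WT depended on single arrays. It went from 14 to 8 without WT replicate 1, to 3 without WT replicate 2, to 3 without E2f8 KO replicate 1 and to 6 without E2f8 KO replicate 2, while the median over the 59 members stayed between -0.31 and -0.18. Calls over all 12980 genes went from 3388 to 2951, 1531, 1882 and 2033 in the same fits. In each of them the share of members called was under that of all genes. Rps14, Rps28 and Rps19bp1 were called whichever array was left out.

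The comparison of DKO with WT called 20 members (38.2% of all genes tested were called), of which 19 fell and 1 rose, where 17.6% of all genes fell and 20.6% rose. The share of members called (33.9%) was again no higher than that of all genes, while 32.2% fell. Again the 19 were core members, 10 of 33 in the large and 9 of 20 in the small subunit, or 35.8% of the core, with a core median of -0.26 beside 0.0004 over all genes, and in 29 core members every DKO array was under every WT array, as for 21.4% of all genes. Rpl5 had signals of 10.89, 10.94 and 10.66 in DKO, all under its WT signals, and fell by 0.85 ± 0.15 (SE, limma, adjusted p = 0.000719), to 0.556 times WT. Rps14 read 10.74, 10.83 and 10.82 in DKO and fell by 0.74 ± 0.12 (adjusted p = 0.000436). Rpl23 fell by 0.68 ± 0.13 (adjusted p = 0.00164), with 11.01, 11.27 and 11.16 in DKO. In each of these genes every DKO array lay under every WT array. Rps9, which lies near the entrance of the mRNA channel, read 12.13, 12.26 and 12.25 in WT and 11.67, 11.65 and 11.74 in DKO, a fall of 0.53 ± 0.10 (adjusted p = 0.00144). Rps29, another Diamond-Blackfan anemia gene, fell by 0.51 ± 0.13 (adjusted p = 0.00689), from 11.28, 11.40 and 11.26 to 10.94, 10.78 and 10.72. Rps20, Rps4x and Rps18 fell by 0.48 ± 0.12, 0.53 ± 0.14 and 0.46 ± 0.14, and in the large subunit Rpl36a, Rpl38, Rpl37a and Rpl10a fell by 0.60 ± 0.16, 0.61 ± 0.18, 0.54 ± 0.14 and 0.49 ± 0.13. Called members numbered 12 without WT replicate 1, without WT replicate 2 or without DKO replicate 3, and 9 without the 2 arrays with low Xist signal (chosen after their values were seen). With each array centred on its median 13 members were called, 12 of them lower. Calls over all 12980 genes were 4959, 3649, 4175, 3743 and 4762 in these fits, in the order given. In each of them the share of members called was under that of all genes.

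DKO against Rb KO is, by the labels, the E2f8 deletion added to that of Rb, and here the members were lowest. Of the 59 members tested 34 were called (37.1% of all genes were), of which 33 fell and 1 rose, where 17.6% of all genes fell and 19.5% rose. The share of members called was 57.6%, and 55.9% fell. The 33 were 62.3% of the core, 20 of 33 in the large and 13 of 20 in the small subunit. The core median was -0.39 against -0.01 over all genes, 52 of 53 lay below 0, and in 39 every DKO array was under every Rb KO array, as for 20.4% of all genes. The core means of the Rb KO arrays were the highest of the 4 groups.

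The Rb KO signals of Rpl5 were 11.53, 11.85 and 11.77, and DKO was lower by 0.89 ± 0.15 (SE, limma, adjusted p = 0.000674), or 0.54 times Rb KO. Rpl23 had 11.92, 11.94 and 11.98 in Rb KO and fell by 0.80 ± 0.13 (adjusted p = 0.00073). Rps14 fell by 0.77 ± 0.12 (adjusted p = 0.000468) from 11.62, 11.45 and 11.63. The Rb KO arrays lay close together in Rpl23 and spread more in Rpl5, and in both genes all were above the DKO arrays. Rps4x, the X-linked copy of a small subunit gene, read 11.77, 11.66 and 11.64 in Rb KO against 10.94, 11.08 and 10.86 in DKO, a fall of 0.73 ± 0.14 (adjusted p = 0.00156). Rpl37a had 12.06, 11.79 and 12.29 in Rb KO against 11.28, 11.33 and 11.40 in DKO, and fell by 0.71 ± 0.14 (adjusted p = 0.00204). Rpl36a, Rpl36 and Rpl10a fell by 0.67 ± 0.16, 0.65 ± 0.15 and 0.63 ± 0.13, and Rps9, Rps20, Rps18 and Rps28 by 0.60 ± 0.10, 0.59 ± 0.12, 0.58 ± 0.14 and 0.55 ± 0.13. Called members numbered 17 without DKO replicate 3, 15 without the 2 arrays with low Xist signal and 18 when only DKO and Rb KO entered the fit. Calls over all 12980 genes were 3988, 3531 and 3576 in these fits, against 4819 in the fit of all arrays. In the first 2 of them the share of members called was thus no higher than that of all genes. Of the 34 called members, 17 were called whichever array was left out, among them Rpl5, Rpl23, Rps14, Rps4x, Rpl37a and Rps9.

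**Figure D3:**
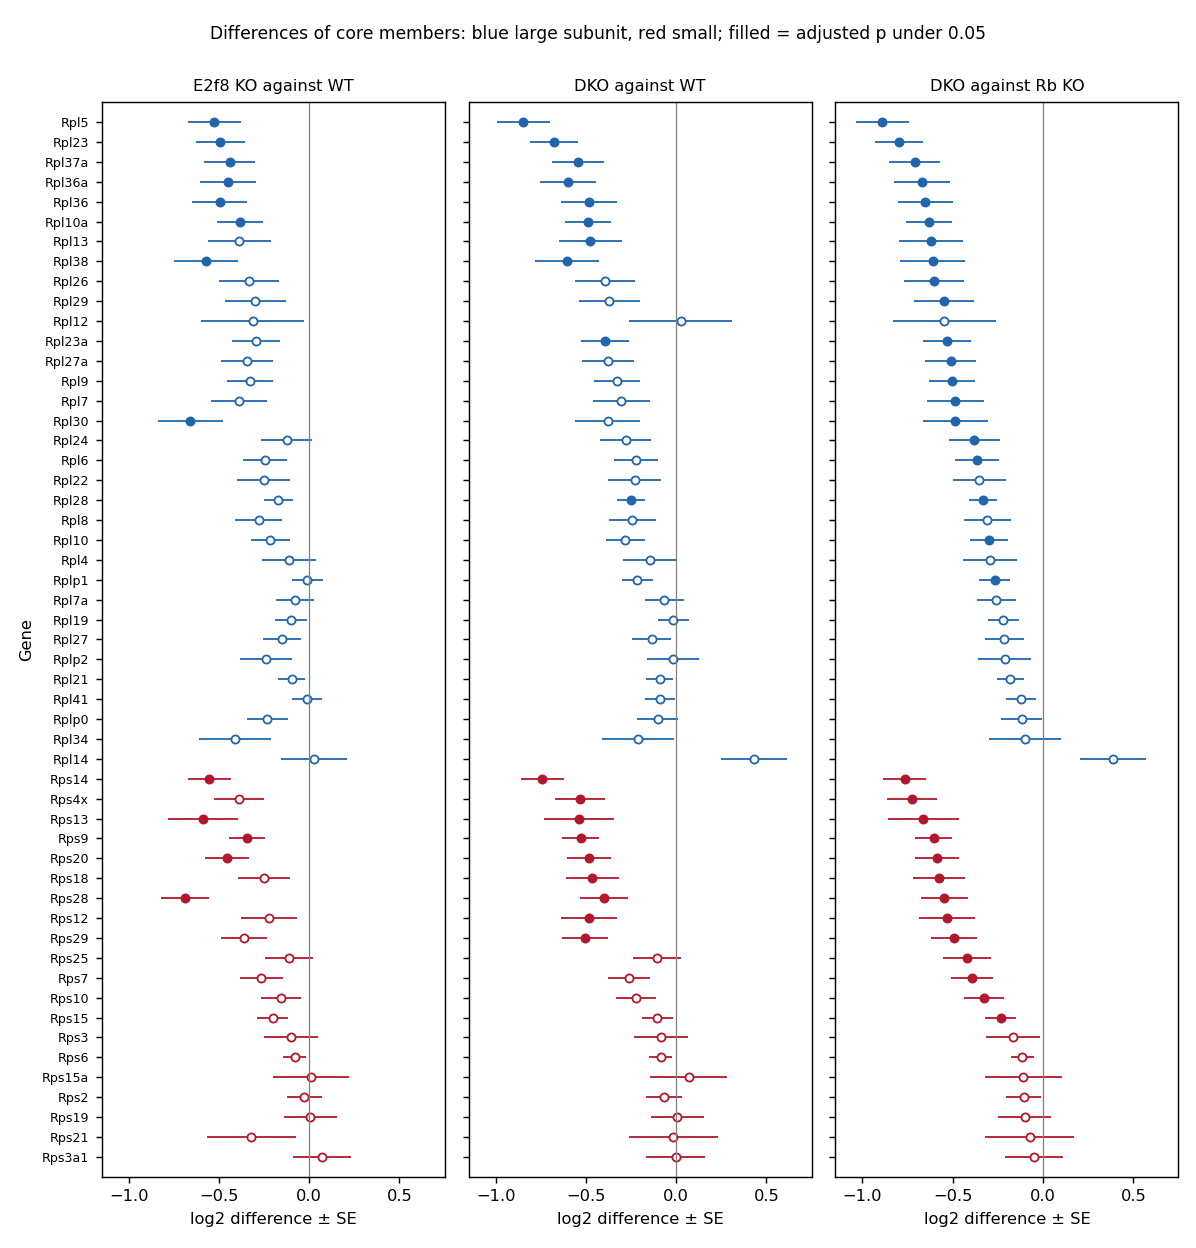
Log2 difference of each core member in E2f8 KO against WT, DKO against WT and DKO against Rb KO, with its SE as a bar. Large subunit genes are blue and small subunit genes red, and filled points have an adjusted p under 0.05. Points lie left of 0 for most genes, and those of DKO against Rb KO reach -0.89 for Rpl5, while Rpl14 lies to the right in the comparisons of DKO.

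E2f8 KO against WT and DKO against Rb KO share no array, and their values can be set side by side. All 13 core members that fell in the first fell in the second (all of the first list and 39.4% of the second), and 49 of 53 lay below 0 in both. Both comparisons come from 1 fit of all 12 arrays, so a gene has the same SE in both and its calls are not independent. With only the compared groups in each fit, 13 core members fell in the first comparison and 17 in the second. Across the 53 core members the differences correlated with Pearson's r of 0.77 and Spearman's rho of 0.79, and over all 12980 genes with 0.91 and 0.83. The overlap of calls over all genes was not counted, so that of the core is not shown to be particular to it. Genes of 1 array share its RNA and are no independent replicates. Rb KO against WT and DKO against E2f8 KO also share no array, and were not set side by side, since no member was called in either. DKO against WT shares arrays with each of the comparisons named here. In all, 12 core members fell in E2f8 KO against WT, DKO against WT and DKO against Rb KO: Rpl5, Rpl10a, Rpl23, Rpl36, Rpl36a, Rpl37a, Rpl38, Rps9, Rps13, Rps14, Rps20 and Rps28.

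Rb KO against WT is, by the labels, the Rb deletion alone. Here 0 of 59 members were called, where limma called 1 gene of 12980 (0.0077%), and 2 members, Rpl19 and Rps25, had an unadjusted p under 0.05. Yet 51 of the 53 core differences lay above 0, with a median of 0.11 against 0.04 over all genes. Of 77 genes of the mitochondrial ribosome 63 also lay above 0, with a median of 0.13. So did 34 of 40 ribosome biogenesis genes (median 0.09) and 13 of 19 translation factor genes (median 0.06). Rps25 read 11.21, 11.25 and 10.95 in WT and 11.60, 11.41 and 11.34 in Rb KO, a difference of 0.31 ± 0.13 (SE, limma, adjusted p = 0.996). In 8 core members all Rb KO arrays were above all WT arrays, as in 2.25% of all genes. The core mean of WT replicate 3 was lower than in the other WT arrays, and without it the median over the members was 0.04.

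In DKO against E2f8 KO limma called 0 of the 59 members, where 2.37% of all genes were, and 4 had an unadjusted p under 0.05, namely Rplp1, Rpl14, Rpl5 and Rps28. The median over the 59 was -0.03, with 27 members above 0. Rpl5 was lower in DKO by 0.32 ± 0.15 (SE, limma, adjusted p = 0.271), and Rps28 differed the other way, by 0.29 ± 0.13 (adjusted p = 0.271). With array weights 2 members were called, both lower, beside 2683 of all 12980 genes.

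The interaction compares the effect of the E2f8 label with and without the Rb label. It was called in 0 of 59 members and in 0.077% of all genes by limma, and 0 members had an unadjusted p under 0.05. The member median was -0.13 against 0.0009 over all genes, and the median SE of a core member was 0.20, so a difference of this size in 1 gene lies within 1 SE. The largest sizes were those of Rpl5 (-0.36), Rpl14 (0.36) and Rpl32l (-0.35).

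Not every core member passed a test. Of the 53, 20 were called in none of the comparisons on the probe set used: Rpl4, Rpl7a, Rpl8, Rpl12, Rpl14, Rpl19, Rpl21, Rpl22, Rpl27, Rpl34, Rpl41, Rplp0 and Rplp2 of the large subunit and Rps2, Rps3, Rps3a1, Rps6, Rps15a, Rps19 and Rps21 of the small. In a limma fit of all probe sets, with its own adjustment, Rpl19 fell on 7 of 7 probe sets, Rpl21 on 7 of 9 and Rplp0 on 1 of 2 in DKO against Rb KO, and Rplp0 on 1 of 2 in DKO against WT. The universal proteins, which have counterparts in bacterial ribosomes, gave 16 called of 23 in DKO against Rb KO with a median of -0.51, and those without such counterparts gave 17 of 30 with a median of -0.34. In DKO against WT the same groups gave 10 of 23 and 9 of 30. Of the 10 core members on a list of Diamond-Blackfan anemia genes, 6 fell in DKO against Rb KO with a median of -0.36, beside 27 of the 43 others with a median of -0.42. They were Rpl5, Rps28, Rps29, Rpl26, Rps7 and Rps10. Rps19, the gene most often mutated in that anemia, showed no separation of the groups. WT arrays read 10.96, 10.87 and 10.49, E2f8 KO arrays 10.70, 10.88 and 10.75, Rb KO arrays 10.86, 10.81 and 10.98 and DKO arrays 10.68, 10.84 and 10.82. Its difference was 0.0075 ± 0.15 (SE, limma) in DKO against WT and -0.10 ± 0.15 in DKO against Rb KO.

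Of the 3 stalk genes of the large subunit, whose proteins recruit elongation factors, 1 passed in 1 comparison on the probe sets used. In the fit of all probe sets Rplp1 fell on 1 of 2 in DKO against WT and on 2 of 2 in DKO against Rb KO, and Rplp0 on 1 of 2 in each. For Rplp0, the base of the stalk, WT arrays read 13.55, 13.41 and 13.54, E2f8 KO arrays 12.97, 13.37 and 13.46, Rb KO arrays 13.53, 13.42 and 13.60 and DKO arrays 13.44, 13.47 and 13.29. On the probe set used Rplp0 passed in no comparison. Of the acidic proteins that bind to it, Rplp1 read 13.24, 12.99 and 13.23 in Rb KO against 12.87, 12.93 and 12.84 in DKO and fell by 0.27 ± 0.09 (SE, limma, adjusted p = 0.027). Rplp2 was called in no comparison, but its signal was low (5.84 to 6.57). Rpl14 ran against the others. WT arrays read 7.68, 7.61 and 7.62, E2f8 KO arrays 7.37, 7.97 and 7.65, Rb KO arrays 7.95, 7.66 and 7.44 and DKO arrays 8.03, 8.18 and 7.998, with a difference of 0.43 ± 0.18 in DKO against WT that did not pass.

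The median difference was largest at middle signals. The 8 core members at a mean signal of 13 or more, among them Rps6, Rpl41 and Rplp0, had a median of -0.21 in DKO against Rb KO with 4 called, and the 35 between 10 and 13 had a median of -0.53 with 27 called. The 10 under 10 had a median of -0.16 with 2 called. Rps6, the target of the S6 kinases, varied between 13.66 and 13.86 over all 12 arrays. Over the 53 core members, signal and difference in DKO against Rb KO had a Pearson's r of -0.13 and a Spearman's rho of 0.02.

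Other probe sets of the same genes gave like values. Of 38 members with several probe sets, up to 14 for Rps12, the median distance between the highest and lowest difference of a gene was 0.09 in DKO against Rb KO, and only Rps4l had differences of both signs. Of the 211 probe sets of all members that passed the filter, 155 fell in that comparison and 1 rose. Among all 21334 probe sets tested 15.3% fell there and 19.4% rose. Genes of the ribosome have many processed copies in the genome, so that a probe set can also bind transcripts of a copy, and this was not tested. Probe sets of 1 gene are also no independent readings, and the 3 of Rpl41 gave the same difference (-0.1225) in DKO against Rb KO. Of the 16 core members with 1 probe set 5 fell, with a median of -0.30, and of the 37 with several 28 fell, with a median of -0.49.

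Rps19bp1 was the only member to rise in the fit of all 12 arrays. It encodes a protein that binds Rps19 and the deacetylase Sirt1 and is no part of the mature ribosome. On the arrays it read 7.65, 7.45 and 7.31 in WT, 7.83, 7.71 and 7.46 in Rb KO, 8.13, 8.12 and 8.32 in E2f8 KO and 8.23, 8.40 and 8.28 in DKO, with E2f8 KO and DKO above all arrays of the other groups. It rose by 0.72 ± 0.16 (SE, limma, adjusted p = 0.00711) in E2f8 KO against WT, by 0.84 ± 0.16 (adjusted p = 0.00133) in DKO against WT and by 0.64 ± 0.16 (adjusted p = 0.00718) in DKO against Rb KO. Of the paralogues, Rpl7l1, which works in ribosome assembly, ranged from 9.28 to 10.27, and Rpl10l, Rps4l and Rpl32l stayed between 5.66 and 8.33. On the probe sets used, none of these passed in any comparison, nor did Rps23rg1. The other probe set of Rps4l rose by 0.40 in DKO against WT, where the one used read -0.16 and was not called.

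Other genes of translation had medians nearer 0 or above it. Of 77 genes of the mitochondrial ribosome, which translates the messages of mitochondrial DNA, 25 rose and 1 fell in DKO against WT, with a median of 0.19, and 14 rose and 2 fell in DKO against Rb KO, with a median of 0.17. Mrps18c, Mrpl13 and Mrpl40 rose by 1.48, 1.34 and 1.21 in DKO against WT. In E2f8 KO against WT 7 rose and 1 fell. Over all genes tested 20.6% rose in DKO against WT, 19.5% in DKO against Rb KO and 11.9% in E2f8 KO against WT, and the shares of the 77 that rose in the last 2 were no higher than these. Of 40 measured genes of ribosome biogenesis, 10 rose and 1 fell in DKO against WT, and 9 and 2 in DKO against Rb KO. The shares that rose were near those of all genes. Those that fell, 2.5% and 5.0%, were under the 17.6% of all genes that fell in each comparison. The box C/D snoRNP proteins Nop56 and Nop58 rose by 1.22 and 1.24 in DKO against WT. Of 19 translation factor genes and genes of like messages, 1 rose and 3 fell in DKO against WT. Pabpc1, the poly(A)-binding protein, fell by 0.57 ± 0.06 (SE, limma, adjusted p = 4.81e-05), Eef1b2 by 0.54 and Eif3f, a subunit of initiation factor eIF3, by 0.58, while Gas5, a host of snoRNAs, rose by 0.83. Of genes close to the members by role but outside the naming rule, Rpsa and Fau were not called, and Rps27l, a paralogue of Rps27 known as a p53 target, rose by 1.22 ± 0.27 in E2f8 KO against WT, 1.40 ± 0.27 in DKO against WT and 1.30 ± 0.27 in DKO against Rb KO.

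**Figure D4:**
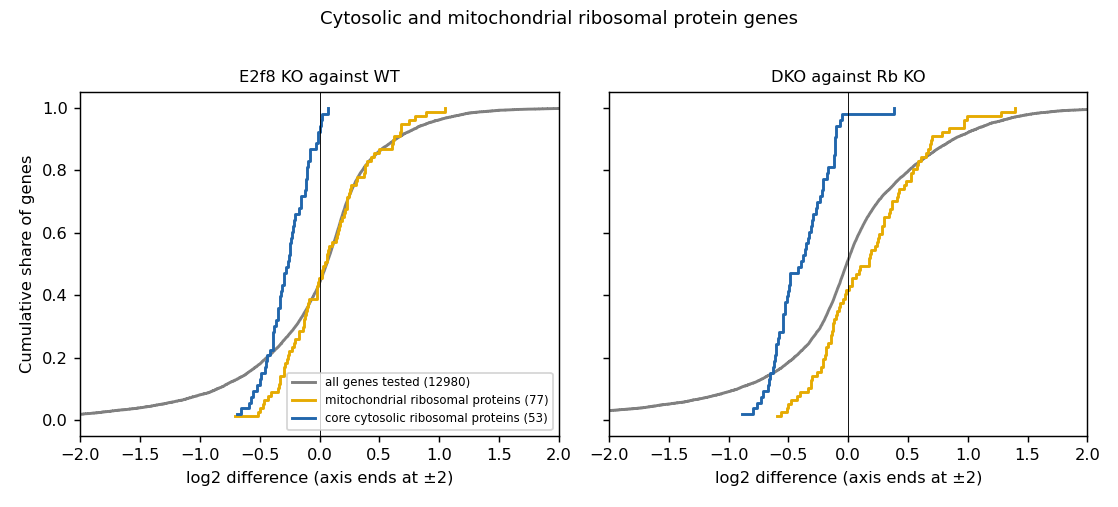
Cumulative share of genes by log2 difference in E2f8 KO against WT (left) and DKO against Rb KO (right), for the 53 core cytosolic members (blue), 77 mitochondrial ribosomal protein genes (yellow) and all 12980 genes tested (grey), with the axis ended at 2 either way. The blue line rises almost wholly left of 0 and is steep, with no member under -0.69 on the left or -0.89 on the right, while the yellow line lies near the grey one or to its right.

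Marker lists of the sorted cells and of other cell types also differed between the groups. Of the 10 tested erythroid markers, 4 rose and 1 fell in DKO against Rb KO, where 19.5% of all genes rose and 17.6% fell. Epor, Gata1 and Klf1 were among those that rose, by 0.99, 0.73 and 0.59, and Alas2 fell by 0.38. Epor also rose and Alas2 also fell in E2f8 KO against WT and in DKO against WT. In DKO against Rb KO all 15 tested B cell markers fell with a median of -4.62, and 8 of 8 T cell and 13 of 16 macrophage markers fell, while 3 of 14 granulocyte markers rose. In Rb KO against WT, where the core median was 0.11, 15 of 16 macrophage markers lay below 0 with a median of -0.95, of which limma called 0 and 14 had an unadjusted p under 0.05. The mean signal of the B cell markers lay between 9.84 and 11.94 in WT and Rb KO arrays and between 6.34 and 8.40 in E2f8 KO and DKO arrays. Rb KO replicate 1 had a lower B cell mean (9.84) than the other Rb KO arrays (11.94 and 11.90) and a core mean of 0.19, near theirs of 0.21 and 0.28. DKO replicate 3 had the highest B cell mean of its group (7.49) and the lowest core mean (-0.27). In E2f8 KO the arrays stood in the same order on both, with B cell means of 8.01, 8.27 and 8.40 beside core means of -0.30, -0.13 and -0.06, and WT replicate 3 was the lowest of its group in both (10.44 and -0.01). With the B cell mean of each array as a covariate in limma, 0 members were called in any comparison, and calls over all genes in DKO against Rb KO went from 4819 to 530. Member medians were then -0.17 in E2f8 KO against WT, -0.20 in DKO against WT and -0.28 in DKO against Rb KO. The SE of Rps13 in DKO against Rb KO went from 0.20 to 0.43. Of 68 calls 60 kept their direction and 8 turned, those of Rps13 in each comparison, Rpl13 in both of DKO, Rpl36 in DKO against WT, and Rpl10 and Rpl30 in DKO against Rb KO. B cell means of E2f8 KO and DKO arrays lay apart from those of WT and Rb KO arrays. In comparisons across these groups the covariate is thus confounded with the labels, and the fit cannot separate them. The part of other cell types in the ribosomal protein differences was not tested.

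**Figure D5:**
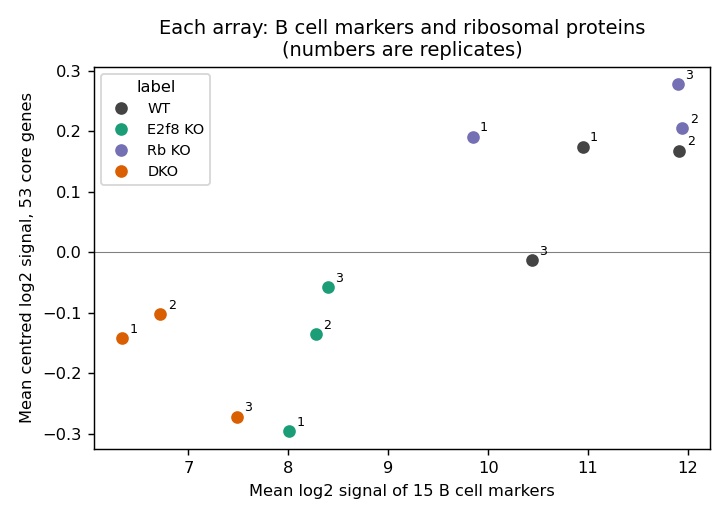
Mean log2 signal of 15 B cell markers (horizontal) and mean centred log2 signal of the 53 core members (vertical) on each of the 12 arrays, coloured by genotype label and numbered by replicate. Arrays labelled E2f8 KO and DKO lie at the lower left and WT and Rb KO at the upper right. Within groups the order of the arrays on the 2 axes is the same in E2f8 KO and differs in WT, Rb KO and DKO.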

How the data were processed

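Total RNA of 12 samples was hybridised as biotin-labelled cRNA to 1-colour Affymetrix arrays, per the labels' protocols. The deposited table holds 1 log2 value per probe set and array, and the submitters' processing notes name MAS5, with no version. The scale was inferred from the values (1.07 to 14.84), and the sources used here do not give the background correction, the normalization or the genome build. Array medians were 6.22 to 6.35.

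Of 35557 probe sets, 21789 had 1 symbol, 1621 several and 12147 none, and 21698 were matched to current names by gene number. The lowest 40% of probe sets by mean (under 5.84) were removed and the highest-mean probe set of each gene was kept. The 12980 genes left were fitted with limma 3.58.1 (R 4.3.3). All 12 arrays entered 1 fit with 1 coefficient per label and a variance trend. Tests were two-sided, with Benjamini-Hochberg adjustment over all genes within a comparison. The fit was tested on simulated data.

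Members and lists (universal proteins, Diamond-Blackfan anemia genes, stalk, translation factors, ribosome biogenesis, mitochondrial ribosome and cell type markers) were chosen with earlier results of these data known. Genes named with values were the 6 called members with the smallest p per subunit and direction in each comparison, the 3 largest interactions, Rpl5, the stalk, up to 4 anemia genes by smallest p and Rps19, the paralogues and binding proteins, and up to 4 genes of each other list by smallest p. Other named members (Rps6, Rps3a1, Rps25, Rpl19 and Rpl13 among them) were chosen after their values were seen.

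As alternatives the filter was dropped or raised to the lowest 60%, arrays were quantile normalized or centred, probe sets of a gene were averaged, the fit was run without the trend, with array weights, on the compared groups alone, with replicate number as a block or with the B cell marker mean as covariate, and each array was left out. Added after seeing the data were a fit without the 2 arrays with low Xist signal and the lowest-mean probe set of each gene.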

Additional observations from a re-analysis of the deposited data

How the results depend on the processing

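Of 68 calls of single members in E2f8 KO against WT, DKO against WT and DKO against Rb KO, the number still called was 57 with no filter, 68 after removal of the lowest 60%, 63 with quantile normalization, 50 with each array centred on its median, 62 with the mean of the probe sets of a gene, 56 with the lowest-mean probe set, 60 with no variance trend, 64 with array weights and 49 with only the groups compared, and no direction turned under these settings. The number of members called moved from 14 to 28 with array weights in E2f8 KO against WT, from 20 to 13 with centred arrays in DKO against WT, from 34 to 18 with only the groups compared in DKO against Rb KO, and from 0 to 2 with array weights in DKO against E2f8 KO. Calls over all 12980 genes moved from 3388 to 6649, 4952 to 4762, 4819 to 3576 and 308 to 2683 in the same fits. Without the 2 arrays with low Xist signal 9 members were called in DKO against WT and 15 in DKO against Rb KO, beside 3743 and 3531 of all genes. The member median of DKO against E2f8 KO was then 0.074. With the B cell marker mean as a covariate the members called were 0 in E2f8 KO against WT, 0 in DKO against WT and 0 in DKO against Rb KO, beside 288, 976 and 530 of all genes. Under that covariate the log2 difference turned to 0.048 for Rps13 in E2f8 KO against WT, to 0.20 for Rpl13, 0.15 for Rpl36 and 0.40 for Rps13 in DKO against WT, and to 0.11 for Rpl10, 0.079 for Rpl13, 0.31 for Rpl30 and 0.31 for Rps13 in DKO against Rb KO, with adjusted p between 0.587 and 0.985. The cause of these changes was not tested.

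Leaving out 1 array at a time gave 3 to 17 called members in E2f8 KO against WT (median -0.31 to -0.18), 0 to 0 in Rb KO against WT (0.04 to 0.15), 12 to 25 in DKO against WT (-0.30 to -0.20), 17 to 34 in DKO against Rb KO (-0.40 to -0.34), 0 to 0 in DKO against E2f8 KO (-0.09 to 0.02) and 0 to 0 for the interaction (-0.19 to -0.09). Calls over all 12980 genes ranged from 1531 to 4384, 3649 to 5621 and 3423 to 5789 in E2f8 KO against WT, DKO against WT and DKO against Rb KO. The large minus small difference ranged from -0.02 to 0.04 in WT, -0.04 to -0.02 in E2f8 KO, 0.01 to 0.04 in Rb KO and -0.0084 to 0.0056 in DKO. A group left with 2 arrays was assumed to vary like the others.

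The replicate numbers did not pair the samples: of 18 pairs of arrays with the same number, the deviations from the group means correlated between -0.38 and 0.57, and 7 were over 0.1. With the replicate number as a block the members called were 14, 0, 20, 31, 0 and 0 in the order of the comparisons above, with 65 of the 68 calls kept. Calls over all 12980 genes were then 3493, 1, 4938, 4750, 248 and 13.

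Precision is limited by the number of arrays, since the median SE of a core member was 0.14 for a difference of 2 groups.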

Other observations

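Ribosomal protein genes that the array reads only on probe sets with several symbols showed values of the same kind. These 90 probe sets, of which 89 passed the filter, stand for 17 genes, and their symbols include other genes or copies. In DKO against Rb KO 48 fell and 0 rose with a median of -0.41, where 15.3% of all 21334 probe sets fell. In DKO against WT 40 fell (15.1% of all) and in E2f8 KO against WT 24 fell (10.6% of all), and in Rb KO against WT limma called 0, with a median of 0.13. Rpl17 alone gave 17 of the fallen probe sets in DKO against Rb KO, in DKO against WT and in E2f8 KO against WT. Probe sets of 1 gene are no independent readings, so these counts are not shares of genes.

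Rps27, a Diamond-Blackfan anemia gene, had lower signals on both of its probe sets in DKO against Rb KO, by -1.25 and -1.19, while its paralogue Rps27l rose by 1.30 in the same comparison. Rps24, also of that list, fell on 3 of 3 probe sets, with differences of -0.88 to -0.84. Rpl11, the partner of Rpl5 in the 5S particle, fell on 5 of 6 probe sets, with a median of -0.46. Rpl17 fell on 17 of 17, with a median of -0.68. The anemia genes Rpl35a and Rps26 fell on 0 of 12 and 0 of 3, with medians of -0.11 and -0.10. Rpl17 was chosen after its values were seen.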
